A study of Mus musculus with 6 samples.

Results

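Cathepsins are the acid proteases of endosomes and lysosomes, and 10 of them were followed here through 6 RNA-seq libraries of mouse mesenchymal stromal cells (MSCs). The members were Ctsa, Ctsb, Ctsc, Ctsd, Ctsf, Ctsh, Ctsk, Ctsl, Ctss and Ctsz, taken by symbol, and all 10 were among the 23420 genes counted. They were selected on the same contrast that is described below, because Ctsc was known to be among the largest falls, so their folds and calls are a description that supports nothing, and no p-value is given for a member. The cells were bone marrow MSCs of young female C57BL/6 mice, grown in culture. The 3 libraries of the Ctl MSC group came from MSCs transduced with the empty AP2 retroviral construct, which carries eGFP. The 3 libraries of the MSC-TPr group came from MSCs transduced with AP2 constructs that carry Psmb9 (β1i), Psmb10 (β2i) and Psmb11 (β5t), the catalytic subunits of the thymoproteasome. The study asked how these subunits affect antigen cross-presentation by MSCs. The sources do not say whether the libraries came from separate cultures, so the p-values below measure only the spread between these samples, which may be technical.

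In cross-presentation, a cell takes up an outside protein and shows its peptides on MHC class I. The proteasome can cut such a protein after it reaches the cytosol, whereas cathepsins can degrade it inside the endosome, and strong lysosomal proteolysis is known to destroy peptides that could otherwise be presented. Most cathepsins are made as inactive precursors, are carried to lysosomes by mannose 6-phosphate receptors and become active at low pH. Ctsb, Ctsc, Ctsf, Ctsh, Ctsk, Ctsl, Ctss and Ctsz cut with a cysteine, Ctsd with aspartates and Ctsa with a serine.

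The coding stretch around the catalytic cysteine is shown because it sets the cysteine cathepsins apart from Ctsa and Ctsd, and because Ctsc differs from the others right beside it. A search of the longest GENCODE coding sequence of each member for the cysteine motif found 1 match in 8 of the 10 members, and 0 in Ctsa and Ctsd. Each stretch below has 36 bases, is written 5′ to 3′ on the coding strand, and has the codon of the catalytic cysteine in capitals. The build is GRCm38 (mm10), and every stretch except that of Ctsz crosses an exon junction, so its coordinates include an intron.
Ctsb, chr14:63135693-63136412, plus strand: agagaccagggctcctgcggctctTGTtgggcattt
Ctsc, chr7:88302291-88308038, plus strand: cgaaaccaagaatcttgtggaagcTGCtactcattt
Ctsf, chr19:4858324-4858442, plus strand: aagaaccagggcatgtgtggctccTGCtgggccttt
Ctsh, chr9:90064249-90064533, plus strand: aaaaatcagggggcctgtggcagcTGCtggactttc
Ctsk, chr3:95501698-95502608, plus strand: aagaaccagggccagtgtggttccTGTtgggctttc
Ctsl, chr13:64367066-64367868, minus strand: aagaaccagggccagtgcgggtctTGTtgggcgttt
Ctss, chr3:95543154-95545359, plus strand: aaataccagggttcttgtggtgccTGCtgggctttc
Ctsz, chr2:174438187-174438222, minus strand: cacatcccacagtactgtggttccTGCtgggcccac
The codon after the cysteine was tgg, a tryptophan codon, in 7 members and tac, a tyrosine codon, in Ctsc alone. Over their translated coding sequences, Ctsk and Ctss were the closest pair, with 58.0% identical residues in a global alignment. Ctsk and Ctss are also neighbours on chromosome 3, at chr3:95499256-95509362 and chr3:95526786-95556403.

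Libraries held 16158756 to 22158887 reads on genes. Levels are given as CPM, which are read counts relative to library sizes scaled by TMM, a correction for differences in RNA composition. On this scale 3 reads, the limit of detection used here, amounted to 0.139 to 0.181 CPM, a limit that covers counting error only. The libraries did not sort by label alone. The first principal component of log2 CPM held 58.5% of the variance and put Ctl MSC replicate 1 (−40.9) with MSC-TPr replicates 2 and 3 (−50.3 and −49.4), against Ctl MSC replicates 2 and 3 (50.8 and 49.2) and MSC-TPr replicate 1 (40.5). The average of 15 cell division genes, in log2 CPM, split the libraries in the same way, at 6.86 in Ctl MSC replicate 1 and 6.88 and 6.80 in MSC-TPr replicates 2 and 3, but 3.91 to 3.93 in the other three. Of the transduced genes, 0 of 3 were higher in every MSC-TPr library. Psmb9 had 3.38, 0.801 and 0.827 CPM in Ctl MSC, against 0.554, 1.24 and 1.21 CPM in MSC-TPr, Psmb10 had 27.8, 8.81 and 8.38 CPM against 8.97, 17.3 and 15.2 CPM, and Psmb11 had 1 to 6 reads in each library. The study checked the transduction by eGFP and by immunoblots of the subunits, and it named Psmb10 among genes with enhanced RNA in MSC-TPr. Here Psmb10 had a log2 fold change of −0.11 (SE 0.533) over 6 libraries and 0.92 (SE 0.156) over replicates 2 and 3 alone. The RNA of the transduced genes therefore did not check the labels of these libraries. Every direction below runs between libraries labelled MSC-TPr and libraries labelled Ctl MSC. Thy1, a defining MSC marker, had 1 read over all 6 libraries, whereas Cd44, Eng, Pdgfrb and Col1a1 were detected in each of them. Nt5e, another MSC marker, had 11.4, 20.2 and 17.4 CPM in Ctl MSC, against 2.66, 4.2 and 5.24 CPM in MSC-TPr, and was called lower by DESeq2 but not by edgeR (adjusted p = 0.0790). The study measured protein by flow cytometry and found the products of both Thy1 and Nt5e on Ctl MSCs. It also reported that the mesenchymal phenotype of MSC-TPr was unchanged.

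Over all 6 libraries, 1 of the 9 tested cathepsins passed the call rule (edgeR's quasi-likelihood test with Benjamini-Hochberg adjustment, where a call needed an adjusted p under 0.05 as well as a shift of 0.5 or more on the log2 scale). This was Ctsc, which was lower in MSC-TPr, and 0 cathepsins were called higher. Among all 11974 genes tested, 0.401% were called lower and 0.0251% higher, and nothing is read from the count of cathepsins, since it comes from the contrast that chose them. Ctss did not pass the filter on low counts and was not tested. DESeq2 called 1 cathepsin higher, Ctsh, and 2 lower, Ctsc and Ctsk, where it called 1.89% of the 12934 genes with an adjusted p higher and 3.39% lower. The same members lay below an unadjusted p of 0.05 in edgeR, 1 higher and 2 lower, as did 6.81% and 8.23% of all genes tested. The median log2 fold change of the 9 tested cathepsins was 0.19, beside 0.01 over all genes tested.

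**Figure D1:**
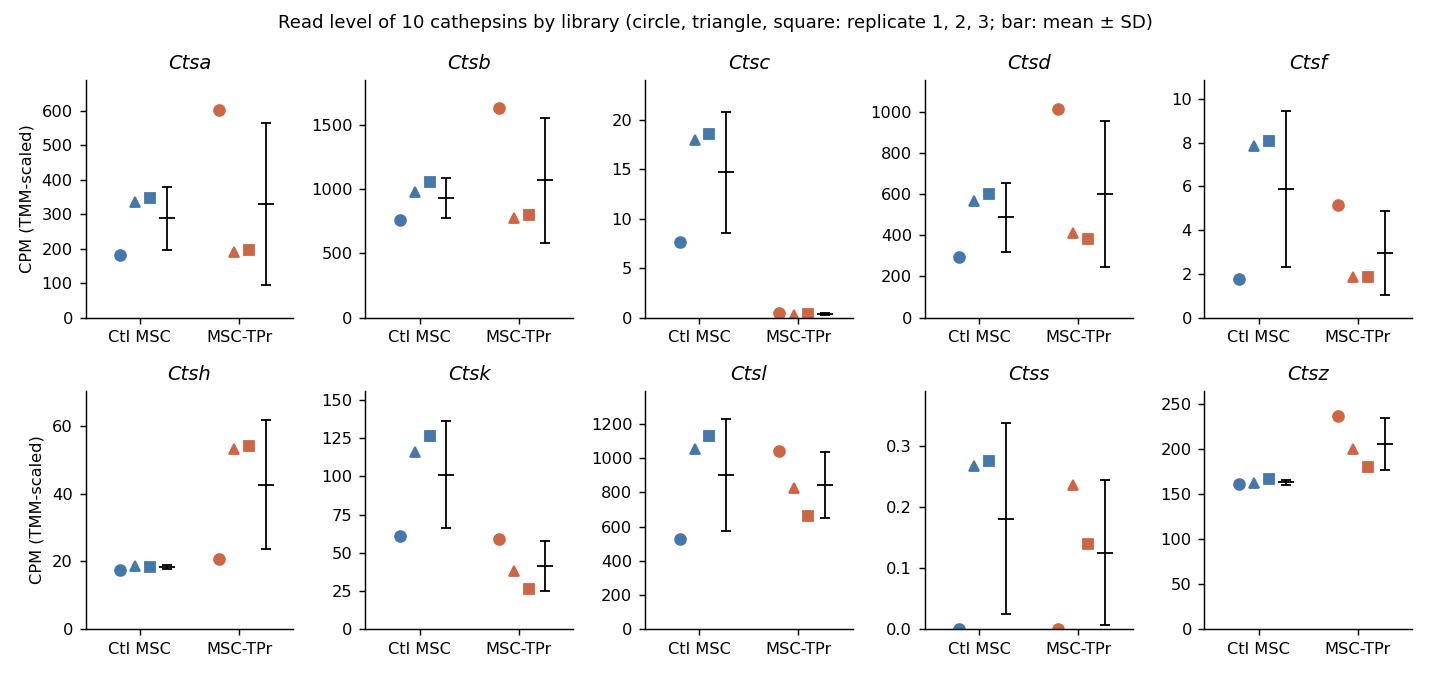
Read level of each of the 10 cathepsins, in CPM with TMM-scaled library sizes on axes that start at 0, for 3 Ctl MSC libraries (blue) and 3 MSC-TPr libraries (orange), with circles, triangles and squares for replicates 1, 2 and 3 and a black bar for the mean ± SD. Ctsc lies between 7.61 and 18.5 CPM in Ctl MSC and at or under 0.498 CPM in MSC-TPr, whereas in Ctsa, Ctsb and Ctsd the highest library is MSC-TPr replicate 1.

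Ctsc encodes dipeptidyl peptidase I, which removes dipeptides from the start of proteins and activates the granule serine proteases of leukocytes. Ctsc (chr7:88278085-88310888, plus strand) had 126, 336 and 336 reads in Ctl MSC, against 9, 4 and 8 reads in MSC-TPr. These were 7.61, 17.9 and 18.5 CPM in Ctl MSC, against 0.498, 0.237 and 0.371 CPM in MSC-TPr. All MSC-TPr libraries lay below all Ctl MSC libraries, and each of them was above the limit of detection. In bulk RNA of this kind, fewer cells that express a gene and less RNA per cell cannot be told apart. The mean was 14.7 ± 6.14 CPM (SD, n = 3) in Ctl MSC and 0.369 ± 0.131 CPM (SD, n = 3) in MSC-TPr, or 39.9-fold lower. The fitted log2 fold change of Ctsc was −5.29 (SE 0.506). The call, which restates the value that chose the list, was kept without Ctl MSC replicate 1 or without MSC-TPr replicate 1 and lost without any other library, while the fold change of Ctsc stayed between −5.59 and −5.06 on the log2 scale.

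Known substrates of Ctsc were nearly absent from these cells. Of 7 granule serine proteases, among them granzyme B (Gzmb) and neutrophil elastase (Elane), 5 had 0 reads in every library and 0 passed the filter on low counts. The leukocyte marker list was also low, with its 12 genes summing to between 11.4 and 14.7 CPM in Ctl MSC and between 13.2 and 17.6 CPM in MSC-TPr. Of its defining markers, Emr1 and Laptm5 had 0 reads in every library, and Ptprc had 2 reads in all. Nearly all of the sum came from Cd14, at 3.27 to 13.2 CPM, Cd68, at 0.789 to 14.2 CPM, and Csf1r, at 0 to 0.835 CPM, with overlapping groups. Lyz2, a macrophage marker of the same list, was scarce but lower in every MSC-TPr library. It had 8, 8 and 4 reads in Ctl MSC, against 1, 3 and 3 reads in MSC-TPr, and did not pass the filter on low counts. Cd14 and Cd68 are also found outside leukocytes, and the part of leukocyte RNA in the Ctsc level was not tested.

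Ctsk and Ctsh were the other members with a mean difference of more than 2-fold whose groups did not overlap. Such separation is frequent here, as 12.1% of all genes tested had every MSC-TPr library below every Ctl MSC library and 10.6% had every one above. Among the 9 tested cathepsins 2 lay apart in each direction, Ctsc and Ctsk below and Ctsh and Ctsz above, and nothing is read from these counts either. Ctsk is the collagen-cutting cathepsin of osteoclasts and of some fibroblasts. Ctsk had 60.9, 116 and 126 CPM in Ctl MSC, against 58.6, 37.9 and 26.4 CPM in MSC-TPr. The groups were separated by only a small gap, since Ctl MSC replicate 1 and MSC-TPr replicate 1 had nearly the same level. The log2 fold change of Ctsk was −1.30 (SE 0.385), between means of 101 ± 35.1 and 41.0 ± 16.3 CPM (SD, n = 3 each). The 8 osteoclast markers summed to between 31.1 and 48.0 CPM in Ctl MSC and between 31.6 and 62.2 CPM in MSC-TPr, nearly all of it from Nfatc1 and Itgb3, which other cells express too. Of the defining osteoclast markers, Calcr had 0 reads in every library and Oscar, Dcstamp and Mmp9 had at most 3 reads in each. Acp5 had 2, 2 and 3 reads in Ctl MSC and 0 reads in every MSC-TPr library, counts that did not exceed the limit of detection. The part of osteoclast RNA in the Ctsk level was not tested.

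Ctsh is an aminopeptidase that trims peptides from their start. Ctsh had 17.6, 18.7 and 18.4 CPM in Ctl MSC, against 20.6, 53.4 and 54.1 CPM in MSC-TPr. The 3 Ctl MSC libraries and MSC-TPr replicate 1 lay close together, and the higher mean of MSC-TPr came from replicates 2 and 3. The log2 fold change was 1.23 (SE 0.371), between means of 18.2 ± 0.594 and 42.7 ± 19.1 CPM (SD, n = 3 each). Ctsz, a carboxypeptidase also called cathepsin X, had 161, 162 and 166 CPM in Ctl MSC, against 236, 199.8 and 179.9 CPM in MSC-TPr. Ctsz had the narrowest range of all members within Ctl MSC, where its highest library was 1.03-fold above its lowest, and its log2 fold change was 0.33 (SE 0.153).

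The abundant lysosomal proteases Ctsb, Ctsd and Ctsl and the protective protein Ctsa had overlapping groups. Ctsd, the main aspartic protease of lysosomes, had 295, 564 and 599 CPM in Ctl MSC, against 1011, 408 and 382 CPM in MSC-TPr, with a log2 fold change of 0.31 (SE 0.460). Ctsb, which cuts within proteins and also removes dipeptides from their end, had 758, 981 and 1057 CPM in Ctl MSC, against 1633, 778 and 803 CPM in MSC-TPr, with a log2 fold change of 0.20 (SE 0.335). Ctsa, a serine carboxypeptidase that stabilises the lysosomal glycosidases Neu1 and Glb1, had 181, 336 and 345 CPM in Ctl MSC, against 601, 190.3 and 195 CPM in MSC-TPr, with a log2 fold change of 0.19 (SE 0.514). In all of Ctsa, Ctsb and Ctsd, MSC-TPr replicate 1 was the highest of the 6 libraries, Ctl MSC replicate 1 was the lowest, and MSC-TPr replicates 2 and 3 lay nearer to Ctl MSC replicate 1 than to MSC-TPr replicate 1. Some markers of other cell types, among them Vwf and Cd68, were also highest in MSC-TPr replicate 1. Others were not, as Cd14 was lowest there, at 3.27 CPM, and the endothelial markers Pecam1 and Cdh5 had 0 reads there. The 5 endothelial markers summed to 24.7 CPM there and to 1.27 to 6.20 CPM in the other libraries, most of it from Vwf with 21.4 CPM, and Cd68 had 14.2 CPM there and 0.789 to 9.67 CPM in the others. Their part in the levels of Ctsa, Ctsb and Ctsd was not tested. Ctsl, an endopeptidase that processes the invariant chain in thymic epithelium, had 524, 1052 and 1131 CPM in Ctl MSC, against 1044, 824 and 663 CPM in MSC-TPr, with a log2 fold change of −0.10 (SE 0.333). Ctsl shared the low value of Ctl MSC replicate 1, but its MSC-TPr replicate 1 stayed within the range of the Ctl MSC libraries.

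Ctsf and Ctss, both known for processing the invariant chain in antigen-presenting cells, were scarce. Ctsf had 1.75, 7.85 and 8.05 CPM in Ctl MSC, against 5.15, 1.83 and 1.86 CPM in MSC-TPr. Ctl MSC replicate 1 was the lowest library and the groups overlapped, so that the log2 fold change of −0.9998 (SE 0.681) lay within 2 standard errors of 0. Ctss had 0, 5 and 5 reads in Ctl MSC, against 0, 4 and 3 reads in MSC-TPr. At 0 to 0.276 CPM, a difference in Ctss was not detectable at this depth, and a count of 0 allowed up to 0.181 CPM in Ctl MSC replicate 1 and up to 0.166 CPM in MSC-TPr replicate 1.

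**Figure D2:**
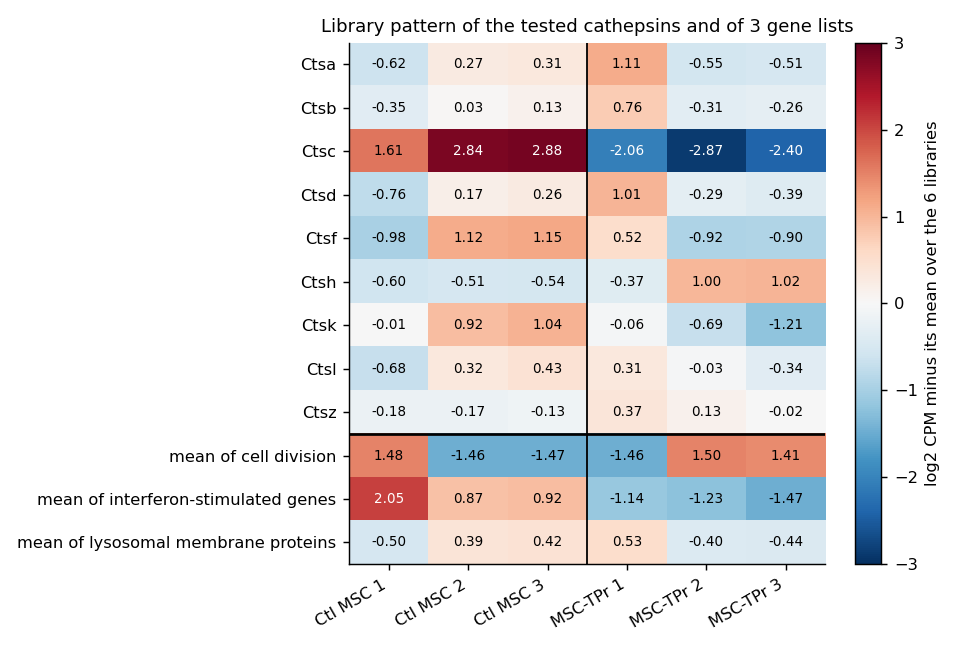
Log2 CPM of the 9 tested cathepsins in each library minus the gene's mean over the 6 libraries, with the same quantity for the mean of 3 gene lists under the black line. Ctsa, Ctsb and Ctsd are high in MSC-TPr replicate 1 (1.11, 0.76 and 1.01) and low in Ctl MSC replicate 1, cell division genes are high in Ctl MSC replicate 1 (1.48) and in MSC-TPr replicates 2 and 3, and Ctsc separates by label.

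Ctsa, Ctsb, Ctsd, Ctsf and Ctsl were split in the same way as the first principal component, which held 58.5% of the variance over all genes tested. The share of all genes with this split was not counted, so nothing is read from the number of cathepsins that had it. On the scale of log2 CPM minus the gene's own mean, Ctsf was at −0.98 in Ctl MSC replicate 1 and at −0.92 and −0.90 in MSC-TPr replicates 2 and 3, but between 0.52 and 1.15 in the other libraries. Ctsa was at −0.62, −0.55 and −0.51 in the same libraries, which were those with high cell division genes, and at 0.27 to 1.11 elsewhere. Ctsb, Ctsd and Ctsl also had these libraries below their mean and the others above it, whereas Ctsh, Ctsk and Ctsz did not divide in this way. For Ctsc, by contrast, the label split the libraries, with 1.61 to 2.88 in Ctl MSC and −2.87 to −2.06 in MSC-TPr. The part of cell division in the cathepsin levels was not tested.

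Among replicates 2 and 3 alone, the label and the cell division level ran together, since both Ctl MSC libraries were low and both MSC-TPr libraries were high in cell division genes. In this comparison of 2 against 2 libraries, 19.4% of 12122 genes were called lower and 20.6% higher. Of the 9 tested cathepsins, 6 were called lower, namely Ctsa, Ctsc, Ctsd, Ctsf, Ctsk and Ctsl, and 1, Ctsh, was called higher. The median log2 fold change of the cathepsins was −0.55, beside −0.00156 over all genes tested, against 0.19 over the 6 libraries. The log2 fold changes of Ctsa (−0.82, SE 0.112), Ctsb (−0.36, SE 0.122) and Ctsd (−0.55, SE 0.120) had the opposite sign to those over 6 libraries, whereas Ctsf was at −2.10 (SE 0.199), Ctsk at −1.91 (SE 0.190) and Ctsh at 1.54 (SE 0.116). The transduction and the cell division level cannot be told apart in these 4 libraries.

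**Figure D3:**
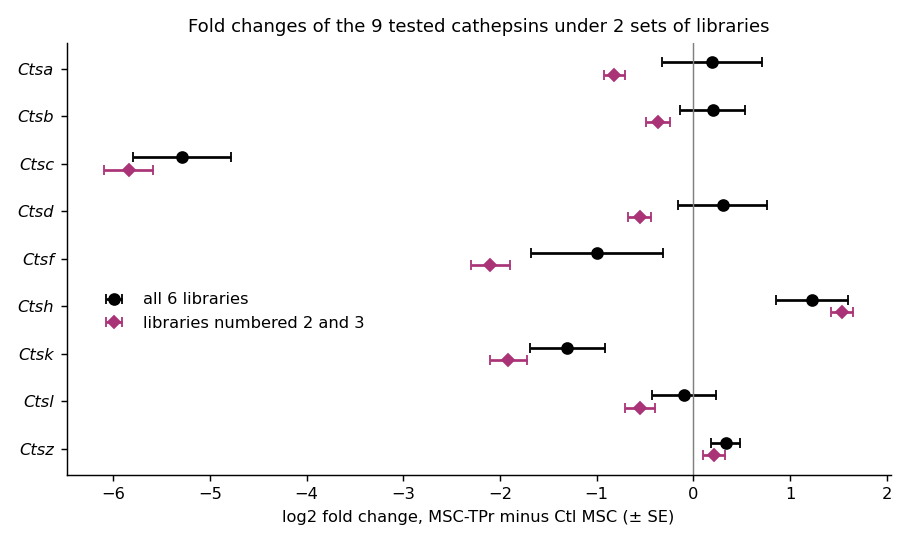
Log2 fold change of each tested cathepsin, MSC-TPr minus Ctl MSC, with its standard error, over all 6 libraries (black circles) and over the libraries numbered 2 and 3 (purple diamonds). Ctsc stays between −5.84 and −5.29, Ctsh and Ctsz stay above 0, and Ctsa, Ctsb and Ctsd change sign.

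Levels of different cathepsins were compared as CPM per kilobase of merged exons. The sum over the 10 members was 528, 833 and 885 CPM per kb in Ctl MSC and 1197, 646 and 594 CPM per kb in MSC-TPr. MSC-TPr replicate 1 had the highest sum and Ctl MSC replicate 1 the lowest, and the means of 749 ± 193 and 812 ± 334 CPM per kb (SD, n = 3 each) differed by less than the spread within either group. Ctsb, Ctsd, Ctsl and Ctsz together made 81.2% to 84.0% of the sum in Ctl MSC and 85.6% to 88.0% in MSC-TPr. Ctsd led in both groups, at 207 ± 70.7 CPM per kb in Ctl MSC and 255 ± 151 CPM per kb in MSC-TPr (SD, n = 3 each).

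In Ctl MSC the order of mean levels per length was Ctsd, Ctsb, Ctsl, Ctsz, Ctsk, Ctsa, Ctsh, Ctsc, Ctsf and Ctss. Neighbours whose ranges overlapped were Ctsd and Ctsb, Ctsb and Ctsl, Ctsl and Ctsz, Ctsk and Ctsa, and Ctsc and Ctsf. Within every Ctl MSC library, however, Ctsd was above Ctsb, Ctsk above Ctsa and Ctsc above Ctsf. Only the order of Ctsb and Ctsl and that of Ctsl and Ctsz differed between libraries. In MSC-TPr the order was Ctsd, Ctsb, Ctsz, Ctsl, Ctsa, Ctsk, Ctsh, Ctsf, Ctss and Ctsc. The ranges of Ctsd, Ctsb, Ctsz, Ctsl and Ctsa overlapped from each to the next, as did those of Ctss and Ctsc. Within libraries, only the order of Ctsb and Ctsz and that of Ctss and Ctsc differed among these neighbours. Ctsc stood at 2.53 ± 1.06 CPM per kb in Ctl MSC, above the mean of 1.17 ± 0.710 CPM per kb of Ctsf. In MSC-TPr, Ctsc stood at 0.0635 ± 0.0225 CPM per kb, in the range of Ctss (SD, n = 3 each). Ctsk made 7.63% to 9.43% of the summed level in Ctl MSC and 2.94% to 3.88% in MSC-TPr.

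**Figure D4:**
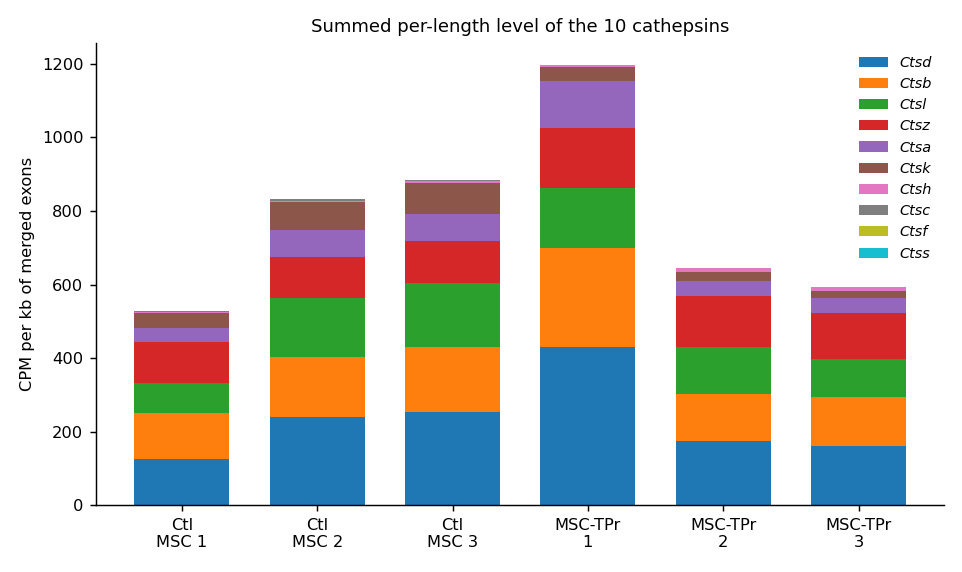
Stacked level of the 10 cathepsins in each library, in CPM per kilobase of merged exons on an axis that starts at 0. The bar of MSC-TPr replicate 1 reaches 1197 and that of Ctl MSC replicate 1 reaches 528, and Ctsd, Ctsb, Ctsl and Ctsz fill most of every bar.

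Short stretches of the promoters are shown for the members that hold a motif bound by regulators of lysosomal genes, or an interferon-type motif. The part of these motifs in the levels of the cathepsins was not tested. TFEB and TFE3, which switch on lysosomal genes, bind the CLEAR element, an extended E-box. RefSeq promoter windows (GRCm38.p6), 9 in all, were matched for 8 of the 10 members, without Ctsb and Ctsh. The 250 bases before each start were searched on both strands. A member counted if any of its windows held the motif, so counts of members and shares of windows are in unlike units. The E-box CACGTG occurred in 4 of these 8 members, and in 6.02% of all 32851 promoter windows. The longer CLEAR-type motif GTCACGTG, which contains the E-box, occurred in 2 members, Ctsa and Ctsd, and in 1.85% of windows. The interferon-type motif, GAAA followed by any pair of bases and GAAA again, occurred in Ctss, and in 2.98% of windows. The motif is in capitals below, and each stretch is written 5′ to 3′ on the strand of its gene.
Ctsa, chr2:164833750-164833772, plus strand: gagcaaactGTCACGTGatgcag
Ctsd, chr7:142387909-142387934, minus strand: cccgcgtctCACGTGACccgttgagg
Ctsd, chr7:142388056-142388077, minus strand: tccccCACGTGACctgtatcca
Ctsf, chr19:4855076-4855101, plus strand: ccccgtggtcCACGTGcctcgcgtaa
Ctsl, chr13:64370741-64370766, minus strand: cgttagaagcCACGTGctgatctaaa
Ctss, chr3:95526757-95526782, plus strand: ctttaaatGAAACCGAAAtgaaagtt
Ctsa had 2 RefSeq windows. The CLEAR-type motif began 14 bases before the downstream start, which lies inside the Ctsa gene of GENCODE (chr2:164832873-164841032), and the window before the upstream start held none of the 3 motifs. In Ctsd the motif began 98 and 245 bases before a start that also lies inside the GENCODE gene (chr7:142375911-142388038), so the nearer match falls within that gene. The Ctsl match likewise falls within the GENCODE gene (chr13:64359337-64370890). A match describes letters and not a bound site, and the windows of Ctsc, Ctsk and Ctsz held none of the 3 motifs.

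Genes that make or serve lysosomes were read in 9 lists with 71 genes, of which 43 were tested. Over the 6 libraries, edgeR called 0 of the 43 higher and 0 lower, with 3 higher and 1 lower below an unadjusted p of 0.05, and DESeq2 called 2 higher and 0 lower. Over the whole table, 6.81% of genes lay below that p and were higher, 8.23% were lower, and DESeq2 called 1.89% higher and 3.39% lower. In the comparison of replicates 2 and 3 alone, where 44 genes of these lists were tested, 6 were called higher and 21 lower, in a comparison where 20.6% and 19.4% of all genes were called. The lysosomal membrane proteins held 8 of these 21, out of 10 tested. Lamp1, the main membrane glycoprotein of lysosomes, had 986, 1566 and 1711 CPM in Ctl MSC, against 3099, 1192 and 1099 CPM in MSC-TPr, with a log2 fold change of 0.34 (SE 0.456) over 6 libraries. The order of libraries in Lamp1 was that of Ctsd, with MSC-TPr replicate 1 highest and Ctl MSC replicate 1 lowest. Lamp2, with 598, 939 and 958 CPM against 917, 496 and 436 CPM, was likewise low in MSC-TPr replicates 2 and 3, whereas Cd63 stayed between 731 and 882 CPM in all 6 libraries.

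Other lysosomal peptidases also varied between the libraries of a group. Scpep1, a serine carboxypeptidase related to Ctsa, had 532, 1227 and 1309.6 CPM in Ctl MSC, against 899, 514 and 408 CPM in MSC-TPr, with a log2 fold change of −0.75 (SE 0.435). Tpp1, a tripeptidyl peptidase, had 82.7, 207 and 206 CPM in Ctl MSC, against 379, 109 and 117 CPM in MSC-TPr, with a log2 fold change of 0.29 (SE 0.585). Prcp, a lysosomal carboxypeptidase, had 27.9, 18.9 and 20.1 CPM in Ctl MSC, against 27.7, 37.3 and 39.6 CPM in MSC-TPr, a change of 0.64 (SE 0.234) on the log2 scale. Lgmn, the asparaginyl endopeptidase that matures several cathepsins, varied less, between 72.2 and 99.8 CPM. Of 13 further cathepsin genes, 10 had 0 reads in every library and only Ctso was tested, at 3.90 to 10.2 CPM with a log2 fold change of −0.54 (SE 0.318).

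The most abundant inhibitors of cysteine cathepsins had fitted changes near 0 over the 6 libraries. Cst3 (cystatin C) had a log2 fold change of −0.01 (SE 0.338), Cstb (cystatin B) of 0.10 (SE 0.211) and Cst6 of −0.01 (SE 0.342). Over these libraries, 0 of 5 tested inhibitors were called by either tool or lay below an unadjusted p of 0.05. Cst3 had 224, 97.0 and 103 CPM in Ctl MSC, against 138, 150 and 135 CPM in MSC-TPr. Over replicates 2 and 3 alone it was called higher (0.51, SE 0.118), whereas Cstb and Cst6 were not called. Of the genes that deliver cathepsins to lysosomes, the mannose 6-phosphate receptors differed in their spread. M6pr lay between 169.6 and 195 CPM in all 6 libraries, whereas Igf2r had 115, 374 and 346 CPM in Ctl MSC, against 344, 126 and 232 CPM in MSC-TPr. Gga2, an adaptor for these receptors, lay between 80.4 and 143 CPM. Among the regulators of lysosome biogenesis, Fnip1 (0.21, SE 0.202), Fnip2 (−0.56, SE 0.595) and Flcn (−0.20, SE 0.335) were the most abundant, with log2 fold changes within 2 standard errors of 0. Zkscan3, a repressor of such genes, had a fitted difference of −0.52 on the log2 scale (SE 0.206, edgeR adjusted p = 0.314), which did not pass the test. It was called lower over replicates 2 and 3 alone (−0.77, SE 0.134). Tfeb had 4.89, 4.33 and 3.97 CPM in Ctl MSC, against 6.75, 5.50 and 6.82 CPM in MSC-TPr, without overlap and with a fitted difference of 0.53 on the log2 scale (SE 0.229, edgeR adjusted p = 0.338). The glycosidases Neu1, Glb1 and Galns, partners of the Ctsa complex, had log2 fold changes of 0.09 (SE 0.404), −0.10 (SE 0.180) and 0.42 (SE 0.264). Over replicates 2 and 3 alone, Neu1 was called lower (−0.59, SE 0.123), Galns was called higher (0.75, SE 0.152) and Glb1 was not called.

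Of the class II processing genes, edgeR called 0 of 3 tested, with 2 higher below an unadjusted p of 0.05. Ifi30, the lysosomal thiol reductase GILT, had 23.3, 15.8 and 17.4 CPM in Ctl MSC, against 35.7, 35.1 and 40.3 CPM in MSC-TPr, and its fitted change was 0.97 on the log2 scale (SE 0.204, edgeR adjusted p = 0.118). H2-DMb1, a chain of the peptide exchange factor for MHC class II, had 2.78, 2.99 and 2.04 CPM in Ctl MSC, against 7.86, 8.34 and 9.32 CPM in MSC-TPr, and its fitted change was 1.71 on the log2 scale (SE 0.252, edgeR adjusted p = 0.0595). With H2-DMa (0.80, SE 0.362, edgeR adjusted p = 0.363), all 3 had every MSC-TPr library above every Ctl MSC library, as did 10.6% of all genes tested. DESeq2 called Ifi30 and H2-DMb1 higher. Cd74, the invariant chain that Ctss, Ctsf and Ctsl process, had 7, 21 and 17 reads in Ctl MSC, against 8, 6 and 2 reads in MSC-TPr, and was not tested over 6 libraries. Over replicates 2 and 3 alone Cd74 was called lower, the opposite direction to the other three, at −2.26 on the log2 scale (SE 0.569, edgeR adjusted p = 0.0215). H2-Ab1 had 0 reads throughout.

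**Figure D5:**
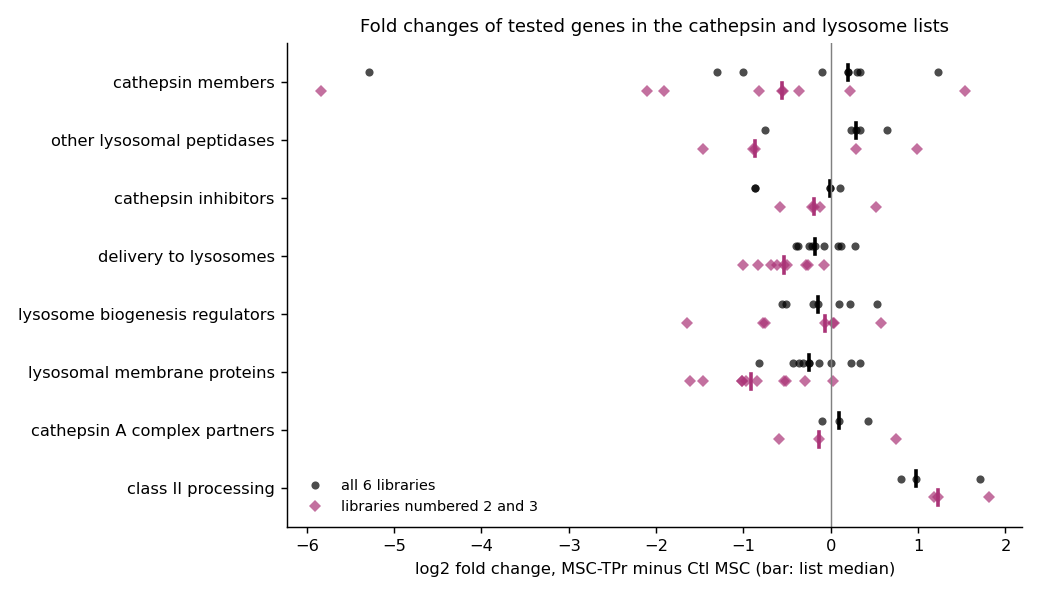
Log2 fold change of each gene tested over 6 libraries, MSC-TPr minus Ctl MSC, for the cathepsins and 7 lists of lysosome and class II genes, over all 6 libraries (black circles) and over the libraries numbered 2 and 3 (purple diamonds), with a vertical bar at each median. Ctsc at −5.29 lies far below the other genes shown, the membrane proteins shift from a median of −0.25 to −0.91 when the libraries numbered 1 are left out, and Ifi30, H2-DMb1 and H2-DMa lie above 0 in both (Cd74, tested over 4 libraries alone, is not shown).

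Interferon-stimulated genes are given because several cathepsins respond to interferon in other cells. Of 12 such genes, listed with earlier results of these data known, 4 were called lower in MSC-TPr. All 12 had every MSC-TPr library below every Ctl MSC library. Among all genes tested, 0.401% were called lower and 12.1% had every MSC-TPr library below every Ctl MSC library. The largest falls were those of Ifi44 (log2 fold change −3.88, SE 0.343, edgeR adjusted p = 0.0142), Oasl2 (−3.59, SE 0.406, adjusted p = 0.0307) and Usp18 (−3.49, SE 0.470, adjusted p = 0.0485). The highest library differed from that of Ctsc. The mean of the list was highest in Ctl MSC replicate 1, at 2.05 above its own mean over the libraries against 0.87 and 0.92 in replicates 2 and 3, whereas Ctsc was lowest there within Ctl MSC. The part of interferon signalling in the fall of Ctsc was not tested.

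The genes with the library pattern nearest to that of a cathepsin were found by the root mean square difference of log2 CPM, centred on each gene's mean, over the 6 libraries. The 3 nearest to Ctsc were Slc6a15 (0.395), an amino acid transporter, AK129341 (0.683) and Birc3 (0.756), an inhibitor of apoptosis. Slc6a15 had 23.0, 47.7 and 52.1 CPM in Ctl MSC, against 2.33, 1.66 and 0.974 CPM in MSC-TPr, so it shared with Ctsc both the fall and the lower value of Ctl MSC replicate 1. The 3 nearest to Ctsb were Pgpep1 (0.0331), which encodes a pyroglutamyl peptidase, Bap1 (0.0585) and Xpnpep3 (0.0660), an aminopeptidase, with Pgpep1 at 29.4, 40.1 and 43.1 CPM in Ctl MSC, against 64.1, 30.2 and 32.6 CPM in MSC-TPr. The 3 nearest to Ctsk were Zfp346 (0.123), Lgals8 (0.168) and Ccdc3 (0.171). All candidates averaged 3 or more in log2 CPM, a level that Ctsc itself did not reach. The nearest gene to Ctsc lay farther from it than the nearest genes to Ctsb and Ctsk did from theirs. This is not read as a trait of Ctsc, because the distance was not scaled to the size of a gene's changes.

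Some reads of the cathepsins could belong to other genes. Ctsa overlaps exons of Pltp by 495 bases and of Neurl2 by 324 bases, Ctsb overlaps Fdft1 by 774 bases and Ctsz overlaps Nelfcd by 10 bases, all on the opposite strand. Ctsl overlaps Gm47123 by 1742 bases on the opposite strand and Gm49230 by 395 bases on its own, and Ctsd overlaps Gm49369 by 808 bases on its own strand, but these 3 genes are not among those counted. Whether reads were counted by strand is not given in the sources, so reads from these stretches cannot be told apart. Of all stretches of 50 bases in the GENCODE transcripts of a member, 11.6% in Ctsa, 12.1% in Ctsb, 26.3% in Ctsl and 32.4% in Ctsd were shared with another gene on either strand. The share was 0.482% in Ctsc, 0.0635% in Ctsh and 0 in Ctsf, Ctsk, Ctss and Ctsz. These shares include genes that were not counted. That of Ctsd was wholly with Gm49369, and that of Ctsl was with counted and uncounted genes, among the latter Gm47123 and Gm49230.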

How the data were processed

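Per the labels and the study's methods, libraries were made from polyadenylated RNA with a stranded kit and read as pairs. The authors trimmed reads with Trimmomatic 0.35, aligned them to mm10 with TopHat2 2.1.0 after CASAVA 1.8.2, and deposited raw counts per gene from Htseq-count, without normalization. The strand setting is not given in the sources used here. Summary rows naming no gene held 13.8% to 20.8% of the counts and were left out of library sizes and tests.

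Groups were taken from the sample labels. Counts were fitted in R 4.3.3 with edgeR 4.0.16 (TMM, filterByExpr, quasi-likelihood test, no term beside the group, Benjamini-Hochberg over all genes tested). A call needed an adjusted p under 0.05 as well as a shift of 0.5 or more on the log2 scale. The standard error is the log2 fold change divided by the square root of F. Log2 CPM used a prior count of 2. The methods of the study use DESeq2, and DESeq2 1.42.0 was run as an alternative. The tests were first tested on simulated data. Coordinates, exon lengths and transcripts came from GENCODE M21 (GRCm38), promoters from RefSeq, and translation and alignment from Biopython 1.88. Of the listed symbols, 2 were found under older names, Emr1 and Sfpi1.

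The members and lists were chosen with earlier results of these data known. Named genes were all members, the transduced genes, in each list the called genes (up to 3, largest first) or otherwise the 3 most abundant tested, and the 3 genes nearest to Ctsc, Ctsb and Ctsk with a mean log2 CPM of at least 3. Further genes were named after their values were seen: Nt5e, Prcp, Zkscan3, Tfeb, H2-Ab1, Cd74, Gzmb, Elane, Lyz2, Acp5 and the markers at or near 0 or detected throughout. No protein table was used here. Alternatives were other normalizations and filters, a replicate block, no minimum fold and leaving out libraries.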

Additional observations from a re-analysis of the deposited data

How the results depend on the processing

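Counts of called genes moved more with the choice of libraries and tool than with normalization. Over all genes, 3 were called higher and 48 lower. At least 10 reads in every library left 29 lower, DESeq2 gave 244 higher and 439 lower, the replicate block gave 0 and 0, leaving out 1 library gave 0 to 11 higher and 0 to 105 lower, and replicates 2 and 3 alone gave 2498 and 2356. Of the cathepsins, 0 were called higher and 1 lower. At least 10 reads left 0 lower, since Ctsc was then not tested, DESeq2 gave 1 higher and 2 lower, the replicate block 0 lower, leaving out 1 library 0 to 1 in each direction (Ctsh was called higher without MSC-TPr replicate 1), and replicates 2 and 3 alone 1 higher and 6 lower. Of the pathway genes, 0 were called either way, against 2 higher with DESeq2, and 6 higher and 21 lower in replicates 2 and 3. The median log2 fold change of the cathepsins, 0.19, was −0.019 with the replicate block, −0.30 to 0.38 without 1 library (−0.30 without MSC-TPr replicate 1) and −0.55 in replicates 2 and 3. The log2 ratio of the summed per-length level, 0.12, was −0.27 to 0.30 without 1 library and −0.47 in replicates 2 and 3, an alternative chosen after seeing the data. The cause of these shifts was not tested. Same-numbered libraries deviated in opposite directions from their group means (correlations of −0.765, −0.594 and −0.604 over 11974 genes), which gave no sign of pairing. These values cannot exclude pairing, because deviations sum to 0 within a group, so the 3 correlations are not independent. A call lost under the block is not read as a weaker effect. The sign of Ctsf, Ctsh, Ctsk and Ctsz was the same in 13 of 13 alternatives and that of Ctsc in the 12 where it had a value, against 9 for Ctsa, 11 for Ctsb and Ctsd, and 10 for Ctsl. Depth limited Ctss most, with at most 5 reads in a library.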
